A study of Homo sapiens with 6 samples.

Results

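The genes described here are 9 keratins that stratified epithelia make mainly above their basal layer: KRT4, KRT13 and KRT78 of mucosal linings, KRT1, KRT10 and KRT2 of the epidermis, and KRT24, KRT23 and KRT80, which are less bound to a single tissue. They were taken by gene symbol and not by measured value, though with earlier results of these data known. Each symbol stood on 1 row, so the group covers 9 of the 58884 genes of the deposited matrix and 9 of its 55 keratin genes. RNA sequencing compared 3 libraries of KYSE450 with 3 libraries of KEAP1null-KYSE450. KYSE450 is a human esophageal squamous cell carcinoma line with wild-type NRF2, and KEAP1null-KYSE450 is a monoclonal line grown from a single KYSE450 cell after CRISPR-Cas9 editing of KEAP1, the adaptor that sends the transcription factor NRF2 to degradation. Both lines were kept untreated in RPMI1640 medium with fetal bovine serum, penicillin and streptomycin. Nothing says that the libraries of a line came from separate cultures, so p-values measure the spread between these libraries, which may be technical. As a clone is set against its parental line, any other difference of the clone cannot be told apart from the loss of KEAP1.

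Keratins form the intermediate filaments of epithelial cells and assemble as pairs of a type I and a type II chain. Basal cells of stratified epithelia make KRT5 with KRT14 or KRT15, and as cells move up they switch to KRT4 with KRT13 in the lining of the esophagus and mouth, or to KRT1, and later KRT2, with KRT10 in the epidermis. The type II genes lie together on chromosome 12, with the type I gene KRT18 at the end of their cluster, and the other type I genes on chromosome 17.

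Values are normalized counts, that is, reads per gene divided by 1 factor per library. They summed to between 54829313 and 57380170 per library, and 3 reads, taken as the floor of detection, were worth between 2.77 and 3.21 normalized counts, which covers counting error only. Fold changes are differences of log2(normalized count + 1) between KEAP1null-KYSE450 and KYSE450, a scale that understates changes of genes with low counts. Levels of different genes are compared only per kb of annotated exon, with the exons of all annotated transcripts of a gene merged.

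The edited gene was looked at first. KEAP1 had 5760, 5226 and 5146 normalized counts in KYSE450 libraries 1 to 3 and 5737, 4906 and 5317 in KEAP1null-KYSE450 libraries 1 to 3. The lines overlapped, and since counts per gene do not show an edit, the mRNA level cannot check the label. NQO1, a classical NRF2 target, lay between 15681 and 17100 in KYSE450 and between 104116 and 110351 in KEAP1null-KYSE450 libraries, with no overlap. NFE2L2, which encodes NRF2, lay between 10616 and 11215 and between 7790 and 8072.

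The squamous label was checked with 9 marker genes, all of which were tested. Their summed level was 380040, 312594 and 273788 normalized counts in KYSE450 and 745139, 613956 and 593843 in KEAP1null-KYSE450 libraries, with KRT5 the most abundant per kb of exon. Without KRT5 the other 8 summed to 129681, 113030 and 99411 in KYSE450 and to 96462, 77437 and 74295 in KEAP1null-KYSE450 libraries. KRT5 was higher and PKP1 was lower in KEAP1null-KYSE450, the median log2 fold change of the 9 was -0.41, and at an unadjusted p under 0.05 limma had 3 higher and 6 lower. Their part in the results below was not tested. None of the 9 columnar markers reached the level needed for a test, and CDX1, CDX2, MUC2, TFF1 and CDH17 were at 0 in all 6 libraries. The 9 summed to between 11.2 and 28.2, and KRT20 was above the floor in all 6 libraries. The highest sum was that of KEAP1null-KYSE450 library 3, where MUC5AC had 9.08 and TFF3 10.1 normalized counts. The 5 leukocyte markers reported here summed to between 10.3 and 27.3. Per kb the most abundant of them was HLA-DRA in KYSE450 (8.39 to 18.2 normalized counts, against 0.923 to 2.04 in KEAP1null-KYSE450) and LYZ in KEAP1null-KYSE450 (4.08 to 10.2, against 0 to 3.03 in KYSE450). The 4 endothelial markers summed to between 48.0 and 74.8, with PECAM1 at 0 throughout. VWF was the most abundant per kb in both lines, with 35.4 to 53.6 normalized counts in KYSE450 and 39.7 to 67.6 in KEAP1null-KYSE450. These ranges overlapped, and VWF was tested and did not pass (log2 fold change 0.25). CDH5 was lower in KEAP1null-KYSE450 (10.7 to 28.9 in KYSE450 against 1.01 to 3.06), a gene that passed the filter described below only through KYSE450. KDR, too low to be tested, had means of 1.36 in KYSE450 and 3.17 in KEAP1null-KYSE450, with overlap. The 8 fibroblast markers summed to 856, 677 and 624 in KYSE450 and to 354, 412 and 437 in KEAP1null-KYSE450 libraries, with COL1A1 the most abundant per kb (607 to 839 and 333 to 431 normalized counts), while COL1A2 and DCN were at or below the floor in all 6. Without COL1A1 the other 7 summed to 17.1, 20.2 and 16.8 in KYSE450 and to 21.2, 11.2 and 6.05 in KEAP1null-KYSE450 libraries. Of these, LUM had 6.42 to 14.2 in KYSE450 and 0 in KEAP1null-KYSE450, and PDGFRB 0 to 1.01 and 0 to 12.9.

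Across the genome, 16701 genes had a mean of at least 10 and were tested with limma, with Benjamini-Hochberg adjustment over all of them. To count as changed, a gene had to have an adjusted p below 0.05 and a log2 fold change of 1 or more in either direction. By this rule 2045 genes (12.2%) were higher and 999 (5.98%) lower in KEAP1null-KYSE450, together 18.2% of those tested. Higher genes made up 67.2% of these calls, but 51.8% after quantile normalization. Of the 9 suprabasal keratins, 2 rose (KRT4 and KRT78) and 2 fell (KRT13 and KRT80). KRT10 and KRT23 were tested and did not pass, and KRT1, KRT2 and KRT24 were too low to be tested. KRT78 passed the filter on low values only through the KEAP1null-KYSE450 libraries, so its call carries no weight in this count. The same held for 544 of the 2045 higher genes, with a mean below 10 in KYSE450, and in reverse for 174 of the 999 lower genes.

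**Figure D1:**
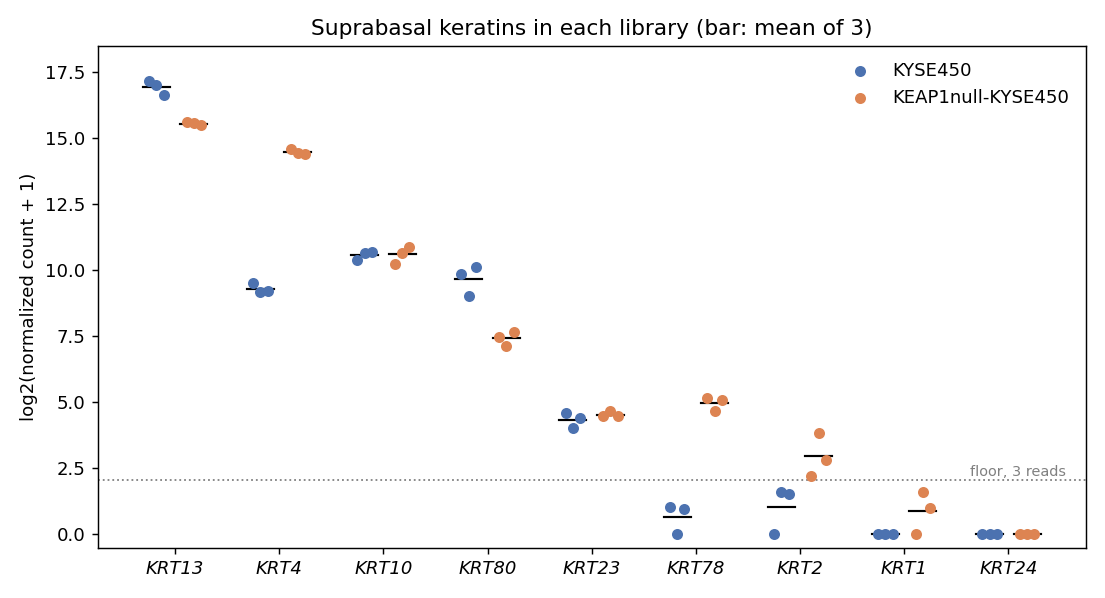
Each point is 1 library, the vertical axis is log2(normalized count + 1), bars mark the mean of the 3 log2 values of a line, and genes are ordered by mean level. KRT4 and KRT78 lie higher and KRT13 and KRT80 lower in KEAP1null-KYSE450, without overlap, while KRT10 and KRT23 overlap and KRT1 and KRT24 lie at or below the floor of 3 reads.

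KRT4 is the type II chain of the mucosal pair (ENSG00000170477, hg38 chr12:52806549-52814116, minus strand, 9 exons in its main transcript). Its mRNA was measured at 734, 581 and 587 normalized counts in KYSE450 libraries 1 to 3. In KEAP1null-KYSE450 libraries 1 to 3 the values were 24520, 22126 and 21604. The lowest KEAP1null-KYSE450 library thus lay far above the highest KYSE450 library, and the ratio of the means was 35.9. The log2 fold change was 5.17 (95% interval 4.93 to 5.41), and it kept between 5.11 and 5.28 in the fits with another pseudocount, filter, scaling, tool or 1 library left out. By level per kb, KRT4 went from place 7126 to place 236 among the tested genes with an annotated length.

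KRT13, the type I partner of KRT4, moved the other way (ENSG00000171401, hg38 chr17:41500981-41505705, minus strand, 8 exons). It had 148719, 134206 and 103439 normalized counts in KYSE450 libraries 1 to 3. The KEAP1null-KYSE450 libraries held 50792, 48434 and 46048. KYSE450 library 3 was the lowest of its line, yet still above every KEAP1null-KYSE450 library. KRT13 fell by 1.40 on the log2 scale (standard error 0.14, limma adjusted p = 4.6e-06). It missed the threshold under 1 of 17 other settings, a test against a fold change of 2, with an adjusted p of 0.091, and over the 17 settings the adjusted p ran from 1.1e-10 to 0.091. In bulk RNA, fewer cells of a type and less RNA per cell cannot be told apart.

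The ratio of the partners takes in both changes. Per kb of exon, KRT13 stood at 44212 ± 7937 normalized counts in KYSE450 and 16624 ± 814 in KEAP1null-KYSE450 (SD, n = 3 each). KRT4 stood at 220 ± 30 and 7907 ± 541 per kb (SD, n = 3 each). For each 100 of KRT13 per kb there were 0.500, 0.438 and 0.575 of KRT4 in KYSE450 libraries and 48.9, 46.3 and 47.5 in KEAP1null-KYSE450 libraries. KRT13 mRNA was therefore the more abundant partner in all 6 libraries, by a mean of 201 times in KYSE450 and 2.10 times in KEAP1null-KYSE450.

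Promoter sequences are shown for KRT4, the member with the largest change among those measured well above the floor in both lines, and for KRT10, which did not pass the test. Promoters in the RefSeq table of GRCh38.p14 matched 4 of the 9 members, KRT2, KRT4, KRT10 and KRT24. Each printed stretch covers 250 bases before the start site and the first 30 transcribed bases, chr12:52814087-52814366 for KRT4 and chr17:40822585-40822864 for KRT10, both read 5′ to 3′ on the minus strand. Capitals mark matches, on either strand, to the core of the antioxidant response element (TGACNNNGC), the AP-1 motif (TGANTCA) or the TATA motif (TATAAA).
KRT4: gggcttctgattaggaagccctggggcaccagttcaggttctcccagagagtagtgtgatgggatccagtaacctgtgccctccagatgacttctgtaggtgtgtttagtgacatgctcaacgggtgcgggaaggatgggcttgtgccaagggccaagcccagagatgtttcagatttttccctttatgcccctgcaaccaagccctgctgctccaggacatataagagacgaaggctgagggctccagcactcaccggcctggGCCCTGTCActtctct
KRT10: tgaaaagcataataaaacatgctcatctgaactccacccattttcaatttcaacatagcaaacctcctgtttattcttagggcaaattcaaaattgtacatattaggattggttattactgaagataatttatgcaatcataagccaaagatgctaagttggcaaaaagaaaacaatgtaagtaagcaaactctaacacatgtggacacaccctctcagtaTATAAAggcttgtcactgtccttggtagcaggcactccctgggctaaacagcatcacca
The KRT4 match, GCCCTGTCA, is the element core on the opposite strand and begins at base 15 of the transcript. A core match is found in 13.3% of the 35116 promoters of 300 bases in the table, so it is a common feature, and whether a factor binds there was not measured. KRT10 has a TATA motif that begins 29 bases before its start, as 11.5% of promoters have on either strand anywhere in the window. KRT24 holds both a core match, TGACCTAGC, and a TATA motif, and KRT2 matches neither pattern. Only the exact letters TATAAA were searched, so variants of the TATA motif are not marked. The AP-1 motif, present in 7.71% of promoters, has no match in these 4 windows. The letters CACCC, which are in 59.9% of promoters on either strand and are not capitalised, occur in all 4. In KRT4 they lie on the opposite strand only, printed as GGGTG.

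All 55 keratin genes together took 1.23% ± 0.178 of the summed normalized counts in KYSE450 and 2.07% ± 0.182 in KEAP1null-KYSE450 (SD, n = 3 each). The suprabasal members made up 24.7%, 26.3% and 23.0% of the keratin level per kb in KYSE450 libraries and 9.33%, 10.1% and 10.1% in KEAP1null-KYSE450 libraries. In KYSE450 this share rested on KRT13, and in KEAP1null-KYSE450 on KRT13 and KRT4. KRT13 alone held 24.0% ± 1.71 and 6.47% ± 0.310, and KRT4 0.120% ± 0.00769 and 3.07% ± 0.0712 (SD, n = 3 each). The other 7 members together held 0.510% and 0.313%. The share is relative to the other keratins. KRT5 itself went from 27.3% ± 1.18 to 53.2% ± 1.58 of the keratin level (SD, n = 3 each). The member share also depends on the exon lengths used. Without division by length it was 18.9% in KYSE450 and 6.38% in KEAP1null-KYSE450.

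**Figure D2:**
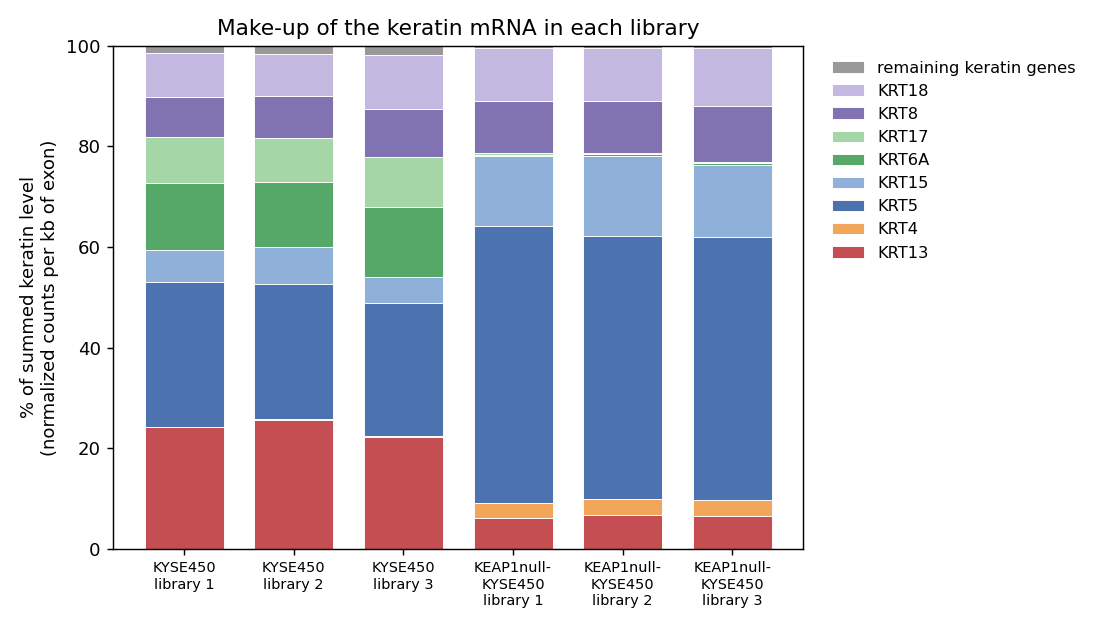
Stacked bars give, for each library, the percentage of the summed keratin level (normalized counts per kb of exon) held by each of the 8 most abundant keratin genes and by the rest. KRT13 shrinks from 24.0% to 6.47% of the mean keratin level, and KRT4 goes from 0.120% to 3.07%. The shares of KRT6A (13.4% to 0.363%) and KRT17 (9.29% to 0.229%) become small, though both genes stay above the floor.

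KRT78 is a type II keratin of upper mucosal and epidermal layers, and its gene lies 2 keratin genes beyond KRT4 on chromosome 12 (ENSG00000170423, hg38 chr12:52837804-52849092, minus strand). It had 1.07, 0 and 0.932 normalized counts in KYSE450 libraries, all below the floor. In KEAP1null-KYSE450 libraries it had 35.1, 24.5 and 33.3. These are low but detected levels in all 3 libraries of the clone, with no overlap between the lines. The log2 fold change of 4.31 depends on the pseudocount, with 1.93 at a pseudocount of 10 and 5.96 at 0.1. In the 4 libraries whose whole reads could be recovered there were 2 reads in KYSE450 and 62 in KEAP1null-KYSE450. That is a ratio of 30.1 per unit of depth, with an exact 95% counting interval from 8.0 to 254. The interval pools the reads of each line, so it leaves out the spread between libraries. As KRT78 passed the filter only through KEAP1null-KYSE450, neither its call nor this interval is a test of the rise. Per kb, KRT78 in KEAP1null-KYSE450 was at 9.49 ± 1.74 normalized counts (SD, n = 3), against 7907 for KRT4.

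KRT80, a type II keratin found near desmosomes in many epithelia, fell (ENSG00000167767, hg38 chr12:52168996-52192014, minus strand). KYSE450 libraries held 941, 523 and 1106 normalized counts of it, and KEAP1null-KYSE450 libraries 179, 139 and 202. The KYSE450 libraries spread widely, but the lowest of them was above the highest of the clone. KRT80 fell by 2.25 on the log2 scale (standard error 0.24, limma adjusted p = 1.1e-05), and the mean was 4.95 times higher in KYSE450. Per kb, KRT80 (196 ± 68.9) and KRT4 (220 ± 30) stood within their spread of each other in KYSE450 (SD, n = 3 each), whereas in KEAP1null-KYSE450 KRT80 was at 39.7 ± 7.33.

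Among the epidermal keratins, the type I chain KRT10 was the only one above the floor in every library of both lines (ENSG00000186395, hg38 chr17:40818117-40822614, minus strand). It had 1334, 1612 and 1672 normalized counts in KYSE450 and 1223, 1630 and 1909 in KEAP1null-KYSE450 libraries. The lines overlapped fully, and the clone held both the lowest and the highest library. The log2 fold change was 0.03 (95% interval -0.30 to 0.36, limma adjusted p = 0.90), and it turned sign in 5 of 17 other settings, with values between -0.12 and 0.20, so no direction can be given. KRT10 is overlapped on the opposite strand by KRT10-AS1, which shares 61 exon bases with it and had 1479 to 1637 normalized counts in KYSE450 and 1817 to 2313 in KEAP1null-KYSE450 libraries. Whether counting used strand is not given in the sources used here, so reads from the shared bases cannot be assigned to either gene.

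The type II partners of KRT10 were almost absent. KRT1, the first epidermal chain made after the basal layer, was at 0 in every KYSE450 library, and the clone had 0, 2.04 and 1.01 normalized counts, so both lines were at or below the floor and no fold is given. KRT2, the chain of the uppermost living epidermal layers, had 0, 2.02 and 1.86 normalized counts in KYSE450 libraries. It had 3.69, 13.3 and 6.05 in KEAP1null-KYSE450 libraries. The KRT2 values of the clone were above the floor and did not overlap those of KYSE450, which were all below it. In the libraries with recovered reads KRT2 had 2 reads in KYSE450 and 17 in KEAP1null-KYSE450. That is a ratio of 8.26, with an exact 95% counting interval from 1.96 to 73.8. This interval too pools the reads of each line. It leaves out the spread between libraries, which was wide in the clone (3.69 and 13.3 normalized counts in libraries 1 and 2). The difference of KRT2 was not tested. At 712 ± 83.4 and 734 ± 160 normalized counts per kb (SD, n = 3 each), KRT10 mRNA was thus present without a comparable level of KRT1 or KRT2, which reached 0.408 and 2.98 per kb in KEAP1null-KYSE450.

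KRT23, a type I keratin of several glandular and stratified epithelia, was low in both lines (ENSG00000108244, hg38 chr17:40922700-40937646, minus strand). It had 23.5, 15.2 and 20.51 normalized counts in KYSE450 and 21.2, 24.5 and 21.2 in KEAP1null-KYSE450 libraries. The ranges overlapped, and the log2 fold change of 0.19 (95% interval -0.68 to 1.05, limma adjusted p = 0.72) became -0.35 after quantile normalization. KRT24, a type I keratin of differentiating keratinocytes, was at 0 in all 6 libraries, so a level below the floor of 3 reads is not excluded.

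Per kb, the order of the members in KYSE450 was KRT13, KRT10, KRT4, KRT80 and KRT23, followed by KRT2 and KRT78 below the floor and KRT1 and KRT24 at 0. In KEAP1null-KYSE450 it was KRT13, KRT4, KRT10, KRT80, KRT78, KRT23, KRT2, KRT1 and KRT24. KRT4 and KRT80 in KYSE450, and KRT78 and KRT23 in KEAP1null-KYSE450 (9.49 ± 1.74 and 7.66 ± 0.647, SD, n = 3 each), were neighbours that did not differ beyond their spread.

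KRT4, which rose, and KRT80, which fell, lie in the same cluster on chromosome 12, and KRT13 lies on chromosome 17. On chromosome 12, 15 of 27 keratin genes were tested, of which 5 were higher and 6 lower. Of these, KRT78, KRT3 and KRT74 passed the filter only through KEAP1null-KYSE450 and KRT86 and KRT81 only through KYSE450, so their calls carry no weight. On chromosome 17, 9 of 28 were tested, of which 1 was higher and 3 were lower. Over all tested genes 12.2% were higher and 5.98% lower. KRT4 and KRT78 flank KRT79, which lies 7291 bases from KRT4 and 3492 bases from KRT78 and held 1.01 to 2.14 normalized counts in KYSE450 and 0.923 to 4.04 in KEAP1null-KYSE450 libraries, at or close to the floor. On the other side of KRT4, KRT3, a type II keratin of the cornea, had 0, 0 and 2.80 normalized counts in KYSE450 and 12.9, 25.5 and 32.3 in KEAP1null-KYSE450 libraries. KRT3 was thus low but above the floor in each library of the clone. The neighbour of KRT78 on its far side is KRT8, whose log2 fold change of 0.81 was below 1. Of the nearest genes of the remaining members, KRT7 beside KRT80 lay between 160 and 216 normalized counts and KRT20 beside KRT23 between 5.04 and 14.0 over the 6 libraries. KRT12, KRT25, KRT28, KRT39, KRT73, KRT222 and SMIM41 were at or below the floor in all of them.

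On chromosome 17, KRT13 and KRT15 lie 8039 bases apart and changed in opposite directions. KRT15, a type I keratin of basal cells, had 81247, 77735 and 50419 normalized counts in KYSE450 and 235886, 234833 and 206602 in KEAP1null-KYSE450 libraries. It rose by a log2 fold change of 1.72 (standard error 0.17, limma adjusted p = 4.8e-06) while KRT13 fell, and KYSE450 library 3 was the lowest of its line for both genes. The genes share 17 stretches of 50 bases, 0.561% of those in KRT13, and how reads were assigned between them was not tested. KRT36, on the other side of KRT13, was at or below the floor. An antisense gene that shares 476 exon bases with KRT13, ENSG00000229732, had 59.7 to 84.9 normalized counts in KYSE450 and 14.3 to 31.4 in KEAP1null-KYSE450 libraries. As for KRT10, reads from the shared bases cannot be assigned to either gene. KRT80 shares 0.363% of its 50-base stretches with other keratin genes and KRT24 0.218%, and the other 6 members share none. LINC00592 overlaps KRT80 on the opposite strand without shared exon bases. It had 8.39 to 16.0 normalized counts in KYSE450 and 28.2 to 35.7 in KEAP1null-KYSE450 libraries. Its log2 fold change of 1.36 passed both thresholds, but did so in only 8 of 16 other settings. ENSG00000234477, which shares 186 exon bases with KRT23, was at or below the floor.

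**Figure D3:**
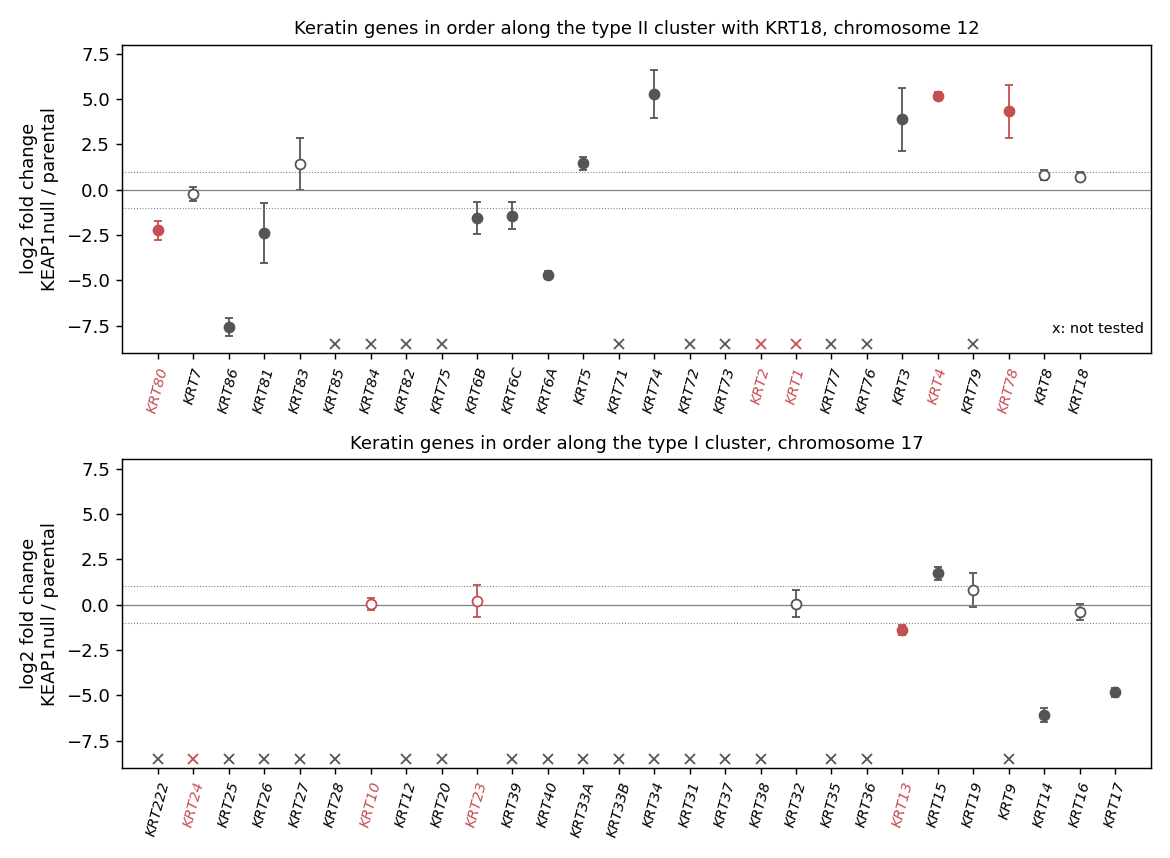
Keratin genes are set out in their order along chromosomes 12 and 17, and the vertical axis is the log2 fold change of KEAP1null-KYSE450 against KYSE450 with its 95% interval from limma. Suprabasal members are red, filled points passed both thresholds, open points did not, crosses at the lower edge are genes too low to be tested, and dotted lines mark a log2 fold change of 1 and -1. KRT4 (5.17) and KRT78 lie above and KRT80 and KRT13 (-2.25 and -1.40) below 0, and the height of KRT78 depends on the pseudocount.

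The keratins of other layers give the setting for these values. Of 8 basal and stress keratins, all tested, 2 were higher and 5 lower, with a median log2 fold change of -1.50, against 12.2% higher, 5.98% lower and a median of 0.004 over all tested genes. KRT5 (1.46) and KRT15 rose, KRT5 with 0.87 after quantile normalization, where it no longer passed. KRT14 (-6.09), KRT17 (-4.85) and KRT6A (-4.70) fell furthest, followed by KRT6B (-1.56) and KRT6C (-1.44), and how reads were assigned among the closely related KRT6 genes was not tested. KRT6B was not called by edgeR or DESeq2 on the recovered reads of 4 libraries, with adjusted p between 9.1e-04 and 0.79 over 16 other settings. KRT16 had a log2 fold change of -0.39 and did not pass. Of 5 simple epithelial keratins 4 were tested and none passed both thresholds with limma, edgeR or DESeq2, with log2 fold changes of 0.81 for KRT8, 0.71 for KRT18, 0.80 for KRT19 and -0.24 for KRT7. KRT8 and KRT18 had adjusted p of 1.3e-04 and 3.0e-04 from limma and missed only the fold, and at an unadjusted p under 0.05 they were the 2 higher genes of this list, with 0 lower.

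Described over the 6 libraries by Pearson's r of log2 values among the 24 tested keratins, the genes most like KRT4 were KRT8 (0.99), KRT78 (0.99) and KRT5 (0.98), and those most like KRT13 were KRT6A, KRT17 and KRT86 (0.98 each). These libraries form 2 lines, so r mainly reflects the difference between the lines.

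Other genes of suprabasal cells were counted from lists written from textbook knowledge. Of 22 mucosal suprabasal genes, 11 were tested, 2 were higher and 3 lower, with a median log2 fold change of -0.25, against 12.2% higher, 5.98% lower and a median of 0.004 over all tested genes. With no fold threshold 5 were lower, as were 4251 of the 16701 tested genes. SPRR3, a small proline-rich precursor of the cornified envelope, had 65.2, 35.4 and 69.0 normalized counts in KYSE450 and 0 in all KEAP1null-KYSE450 libraries, at least 19.2-fold lower against a floor of 3 reads per library, and the list's median is the same with SPRR3 at that bound. SPRR3 passed the filter only through KYSE450, so its call carries no weight in the count. SCEL (-2.38), a cornified envelope protein, and EMP1 (-1.83), a membrane protein of differentiating epithelium, also fell. TMPRSS11E, a membrane serine protease, rose by a log2 fold change of 3.16. IL1RN, the interleukin-1 receptor antagonist, was just past both thresholds (1.08, limma adjusted p = 0.048) and passed in only 3 of 16 other settings, with adjusted p from 0.0055 to 1.00, so its call is weak. Of the 11 genes not tested, 8 were at or below the floor in every library, among them CRNN, TGM3 and RHCG at 0.

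Of 20 epidermal suprabasal genes, 8 were tested, 2 were higher and none lower, with a median log2 fold change of 0.22, and among so few genes the counts are near the 12.2% and 5.98% over all tested genes. At an unadjusted p under 0.05 limma had 3 of them higher and 1 lower, and edgeR and DESeq2 on 4 libraries each called 2 higher and 0 lower. DSG1, a cadherin of upper-layer desmosomes, had 42.8, 56.6 and 30.8 normalized counts in KYSE450 and 144, 111 and 156 in KEAP1null-KYSE450 libraries, and ABCA12, a lipid transporter of the epidermal barrier, had 107, 64.7 and 52.2 and then 316, 376 and 239. Both rose without overlap of the lines, by log2 fold changes of 1.67 and 2.08. Of the 12 genes not tested, 6 were at or below the floor in all 6 libraries (LORICRIN, IVL, CDSN, FLG2, CASP14 and TGM5). FLG, which encodes filaggrin, was tested and did not pass, with 13.1 to 22.4 normalized counts in KYSE450 and 10.2 to 18.2 in KEAP1null-KYSE450 libraries. SBSN, which encodes suprabasin and was too low to be tested, had 1.07, 2.02 and 0.932 in KYSE450 and 5.54, 7.14 and 5.04 in KEAP1null-KYSE450 libraries, all of the latter above the floor.

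Of the 24 transcription factors and receptors of stratified epithelia reported here, all tested, 3 were lower, with a median log2 fold change of -0.36, against 5.98% lower and a median of 0.004 over all tested genes. The number lower depends on the setting, with 12 at no fold threshold (4251 of the 16701 tested genes), 7 without KYSE450 library 3, and 5 without KEAP1null-KYSE450 library 1 or 3 or after quantile normalization. KLF4, a factor of upper-layer differentiation, had 2811, 2419 and 2363 normalized counts in KYSE450 and 833, 722 and 948 in KEAP1null-KYSE450 libraries, a fall of 1.60 on the log2 scale. GRHL1, which acts on desmosomal cadherin genes, fell by 1.42. MAF, a factor that takes part in epidermal differentiation, had 43.9, 43.5 and 33.6 normalized counts in KYSE450 and 1.85, 4.08 and 0 in KEAP1null-KYSE450 libraries. The lines did not overlap, and the clone was close to the floor. The log2 fold change of -4.07 ran from -5.43 to -2.08 over the other settings, and MAF passed the filter only through KYSE450, so its call carries no weight in the count. TP63 (-0.60), PAX9 (0.61), ZNF750 (0.65) and GRHL3 (0.07) did not reach a log2 fold change of 1. For TP63 and PAX9 the lines did not overlap, and with limma adjusted p of 0.0012 and 2.5e-04 they missed only the fold. For ZNF750 and GRHL3 the lines overlapped, with limma adjusted p of 0.21 and 0.81.

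**Figure D4:**
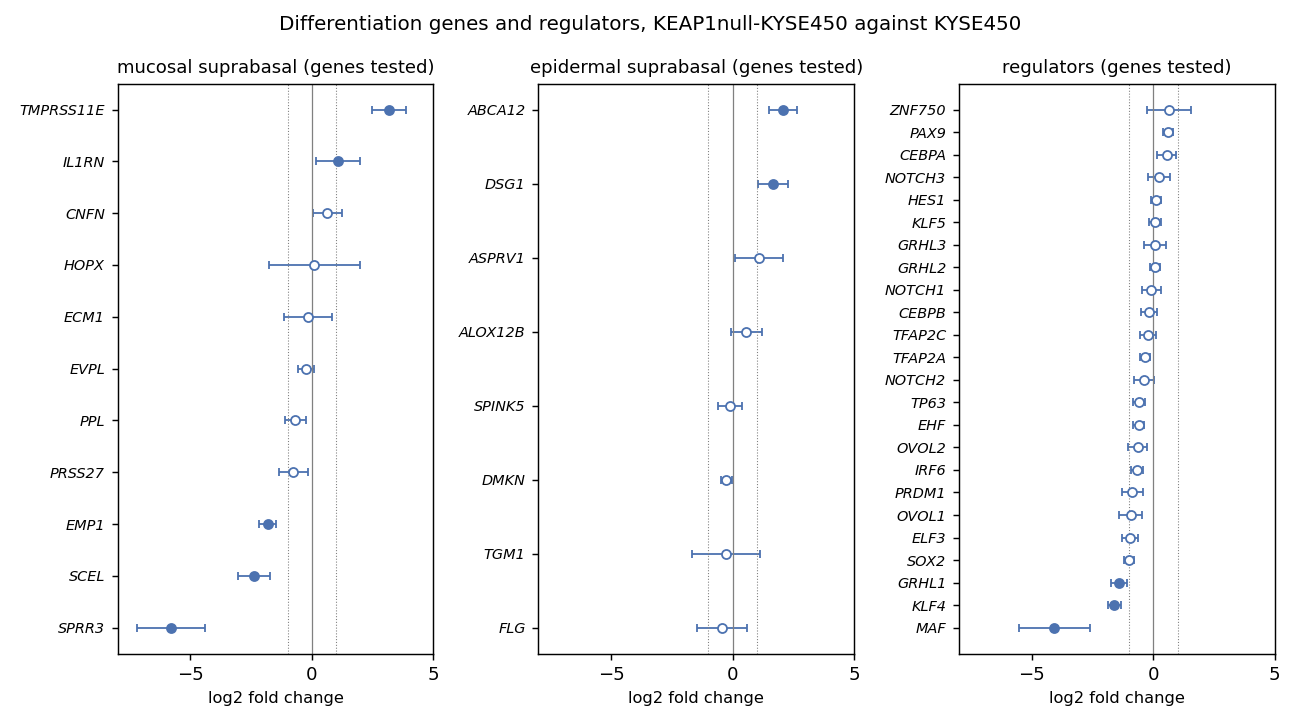
Points are log2 fold changes of KEAP1null-KYSE450 against KYSE450 with 95% intervals from limma for the tested genes of 3 lists, filled where both thresholds were passed, with dotted lines at 1 and -1. SPRR3, SCEL and EMP1 lie lowest among mucosal genes, DSG1 and ABCA12 highest among epidermal genes, and MAF (-4.07), KLF4 (-1.60) and GRHL1 (-1.42) lowest among the regulators shown. The values of SPRR3, at 0 in KEAP1null-KYSE450, and of MAF depend on the pseudocount.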

How the data were processed

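The values deposited by the authors are normalized counts per gene, a signal that is never negative. According to the study's methods and the submitters' processing notes, the authors checked and trimmed reads (FastQC 0.11.5, cutadapt 1.12), aligned them to hg38 with STAR 2.6.90c, counted them with featureCounts 1.5.1 and normalized the matrix; a strand setting is not given in the sources used here. Column names give the line alone, and libraries are numbered here by column order. In all 6 libraries 100% of values lay within 0.1 of a whole read. In 4 they were turned back into whole reads, between 53027359 and 61543442 per library; in KYSE450 library 2 and KEAP1null-KYSE450 library 3, 1 read was worth 1.01 normalized counts, taken as too close to 1 to accept.

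Lines were compared with limma 3.58.1 (R 4.3.3; eBayes with trend, two-sided) on log2(normalized count + 1) of genes whose mean was 10 or more, with Benjamini-Hochberg adjustment. Fits were tested on simulated data. Alternatives were each library left out, equal totals, quantile normalization, pseudocounts of 0.1 and 10, a minimum mean of 100 or none, no fold threshold, a test against a fold of 2, eBayes without trend, and edgeR 4.0.16 and DESeq2 1.42.0 on the recovered reads, which called 2698 and 2500 genes. Exon lengths, positions and neighbours came from gencode v44, while the methods name RefSeq and the matrix carries Ensembl identifiers. Lengths behind levels per kb may therefore differ from those counted over. They merge the exons of all annotated transcripts, so a gene with many transcripts may be divided by more than its mRNA length. Counting intervals are exact conditional binomial intervals at 95% on reads pooled within a line, and leave out the spread between libraries.

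Members and lists were chosen with earlier results of these data known. From the lists of regulators and of leukocyte markers, 1 gene each is not reported here and is left out of their counts. Named genes were all members, KEAP1, NFE2L2 and NQO1, the tested basal, stress and simple keratins, up to 4 called genes per direction and list by size of change, TP63, PAX9, KLF4, ZNF750 and GRHL3, neighbouring and overlapping genes, and the 3 keratins most like KRT4 and KRT13; other genes in the text were named after their values were seen.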

Additional observations from a re-analysis of the deposited data

How the results depend on the processing

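Under 17 other settings KRT4 and KRT80 stayed past both thresholds in the same direction, and KRT13 did so under 16 of 17. KRT78 passed the filter only through KEAP1null-KYSE450, so its calls carry no weight. The number of members called was 3 or 4 throughout, with KRT78 below the filter at a mean of at least 100 and KRT13 lost in a test against a fold of 2. No paired analysis was possible because the columns carry no replicate numbers.

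Genes called came to 3044, to 1558 at a mean of at least 100 (fewer genes tested), to 8311 with no fold threshold and to 1021 in a test against a fold of 2, and to between 2645 and 3064 with 1 library left out. The member share of the keratin level was 24.7% in KYSE450 and 9.85% in KEAP1null-KYSE450; without division by length it was 18.9% and 6.38%, and after quantile normalization 11.7% in KEAP1null-KYSE450. With 1 library left out it lay between 23.9% and 25.5% in KYSE450 and between 9.71% and 10.1% in KEAP1null-KYSE450.

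KRT10 had log2 fold changes of -0.044 with edgeR and -0.071 with DESeq2, and between -0.12 and 0.20 with 1 library left out. KRT23 had -0.35 after quantile normalization. None of these passed a threshold, and the cause was not tested.

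Mucosal genes called higher numbered 0 at a mean of at least 100 and 1 with either other pseudocount, no filter, quantile normalization, a test against a fold of 2, no trend, edgeR or DESeq2, and 1 or 2 with 1 library left out. Those called lower numbered 1 at a mean of at least 100, 4 with no filter and after quantile normalization, and 5 with no fold threshold. Epidermal genes called higher numbered 1 at a mean of at least 100 and in a test against a fold of 2, and 3 with no filter, without KEAP1null-KYSE450 library 3 and with no trend, and 1 was lower with no fold threshold. Regulators called lower numbered 2 at a mean of at least 100 and in a test against a fold of 2, 4 with edgeR and DESeq2, 5 after quantile normalization, 12 with no fold threshold and 3 to 7 with 1 library left out; of those reported, 2 were higher with no fold threshold and 0 or 1 with 1 library left out. Basal and stress keratins called higher numbered 1 after quantile normalization and in a test against a fold of 2, and those called lower 3 at a mean of at least 100 and in that test. Simple keratins called higher numbered 2 with no fold threshold.

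Depth limits KRT2 and KRT78, for which single reads decide the ratio, and KRT1 and KRT24, for which no ratio is given.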

Other observations

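KRT74 and KRT77, keratins outside the lists, and DSC1 and MAL, listed genes too low to be tested, were chosen after their values were seen. KRT74, a type II keratin of hair roots that lies between KRT5 and the epidermal genes on chromosome 12, had 0, 4.04 and 1.86 normalized counts in KYSE450 and 126, 81.6 and 76.7 in KEAP1null-KYSE450 libraries, without overlap. In KYSE450 only library 2 was above the floor, and KRT74 passed the filter only through KEAP1null-KYSE450. KRT77, a type II keratin of sweat gland ducts next to KRT1, was at 0 in every KYSE450 library and reached 5.54, 7.14 and 3.03 normalized counts in the clone, at least 1.74-fold higher against a floor of 3 reads per library. DSC1, the desmosomal partner of DSG1 in upper epidermal layers, was at 0 in KYSE450 and at 12.9, 17.3 and 2.02 in KEAP1null-KYSE450 libraries, where the last value was below the floor. MAL, a membrane protein of mucosal upper layers, had 11.8, 16.2 and 3.73 normalized counts in KYSE450 and 0, 2.04 and 0 in KEAP1null-KYSE450 libraries.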
